A study of Rattus norvegicus with 27 samples.

Results

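The heart draws most of its energy from fatty acids, and 33 genes of mitochondrial beta oxidation and of the response to the fatty acid receptor PPAR alpha were followed across 4 exposure groups of rats. The 33 genes were listed by name, and a gene was measured where a probe carried its current symbol. That held for 32 of them, with 34 probes among 22226 on the array, and Hadha carried no annotated probe. All 32 passed the filter that kept the 11657 brightest probes by mean over all arrays. Angptl4 and Crat have a further probe each, given apart. By role, 10 genes are core enzymes of the beta oxidation spiral and its electron transfer (9 measured), 4 are other matrix enzymes, 8 serve uptake, activation and the carnitine shuttle, 9 are targets commonly induced through PPAR alpha, and 2 are regulators.

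Male Fisher 344 rats, 4 weeks old at the start, were exposed to coarse, fine or ultrafine ambient particles or to filtered air for 3 months, and total RNA of the heart was hybridised to Illumina bead arrays. The deposited table held 6 arrays of coarse, 6 of fine, 8 of ultrafine particles and 7 of filtered air, after the authors had removed 5 of 32 arrays for poor signal. Every group was of the same strain and sex, and none carried a genetic change or another agent per the labels. Each array was taken as 1 rat, which the labels do not state outright, so the p-values measure the spread between these arrays. Levels are the deposited values, which lie between 5.12 and 14.17 and were taken as log2. The sources used here do not say whether they are plain log2 or variance-stabilised, and a stabilised scale understates the folds of dim probes such as those of Acot1, Angptl4 and Ucp3. Levels of different probes are not compared with each other. The series title names transcripts of the heart under chronic particle exposure as its subject, and each comparison here takes 1 particle size against filtered air or against another size. The 3 comparisons with filtered air share its arrays, so they are given side by side and not set against each other.

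Long-chain fatty acids enter the cardiomyocyte through carriers such as CD36, are activated to acyl-CoA, and cross into the mitochondrion through the carnitine shuttle, whose first step, carnitine palmitoyltransferase, is blocked by malonyl-CoA. In the matrix, acyl-CoA dehydrogenases, hydratase, hydroxyacyl-CoA dehydrogenase and thiolase remove acetyl units in turn, and the electron transfer flavoprotein passes the electrons on to the respiratory chain. Fatty acids bind the nuclear receptor PPAR alpha, which pairs with RXR on direct repeats of a short half-site, and fasting, diabetes or fat feeding raise a set of its targets in the rodent heart, among them the thioesterase Acot1, the lipase inhibitor Angptl4, the carrier Ucp3 and Pdk4, a kinase that restrains pyruvate oxidation.

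The start-site windows of 4 of the induced genes, and of the core enzyme gene Acadvl, are shown. The first 4 were named as examples of induced targets when the genes were listed, and Ucp3 and Acadvl each hold 2 half-sites. Plin2, which is not shown, rose with ultrafine particles in some of the fits below, as those 4 did. Each window runs from 250 bases before to 50 bases after the RefSeq start in the GRCr8 assembly, 5′ to 3′ on the strand of the gene, and capitals mark the half-site AGGTCA, sought on both strands. They are Acot1 at chr6:109367024-109367323 (plus strand), Angptl4 at chr7:15258632-15258931 (minus strand), Ucp3 at chr1:164227660-164227959 (plus strand), Cpt1a at chr1:209995910-209996209 (plus strand) and Acadvl at chr10:55236656-55236955 (minus strand).
Acot1: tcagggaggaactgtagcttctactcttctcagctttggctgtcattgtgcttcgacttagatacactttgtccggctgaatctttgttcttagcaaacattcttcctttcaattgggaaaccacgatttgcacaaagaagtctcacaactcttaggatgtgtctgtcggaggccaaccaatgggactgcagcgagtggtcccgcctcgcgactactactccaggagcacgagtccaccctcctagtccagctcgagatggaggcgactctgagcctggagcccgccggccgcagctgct
Angptl4: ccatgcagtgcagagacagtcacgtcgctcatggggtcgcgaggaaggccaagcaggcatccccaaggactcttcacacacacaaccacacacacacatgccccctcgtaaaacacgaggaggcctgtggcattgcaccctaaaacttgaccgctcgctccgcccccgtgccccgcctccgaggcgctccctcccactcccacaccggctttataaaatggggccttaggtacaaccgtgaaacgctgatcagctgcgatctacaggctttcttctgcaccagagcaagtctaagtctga
Ucp3: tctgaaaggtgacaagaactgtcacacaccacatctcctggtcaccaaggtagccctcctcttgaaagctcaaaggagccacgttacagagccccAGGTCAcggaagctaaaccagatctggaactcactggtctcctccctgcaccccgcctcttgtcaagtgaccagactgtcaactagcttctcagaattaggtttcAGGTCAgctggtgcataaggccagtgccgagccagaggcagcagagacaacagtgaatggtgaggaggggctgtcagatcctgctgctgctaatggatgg
Cpt1a: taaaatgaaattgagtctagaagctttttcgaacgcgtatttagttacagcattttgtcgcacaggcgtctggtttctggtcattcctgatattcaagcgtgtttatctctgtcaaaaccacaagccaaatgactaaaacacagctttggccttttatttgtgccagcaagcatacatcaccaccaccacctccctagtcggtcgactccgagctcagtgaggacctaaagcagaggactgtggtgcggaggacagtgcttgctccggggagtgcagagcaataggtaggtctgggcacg
Acadvl: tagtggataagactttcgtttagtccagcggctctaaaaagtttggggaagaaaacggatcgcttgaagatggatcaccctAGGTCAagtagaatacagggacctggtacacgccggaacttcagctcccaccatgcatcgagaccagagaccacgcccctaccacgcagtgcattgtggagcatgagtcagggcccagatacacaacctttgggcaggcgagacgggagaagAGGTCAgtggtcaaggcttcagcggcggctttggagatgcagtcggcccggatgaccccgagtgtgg
Counted from the start site, with -1 for the base before it, the half-sites of Ucp3 began at -155 and -50 and those of Acadvl at -169 and -17. RefSeq windows were matched for 28 of the 33 genes, 29 windows in all because Plin2 has 2. The half-site stood in 5 of the 29 windows (17.2%), against 5415 of the 33469 windows of the table (16.2%), and the other 3 were those of Plin5, Eci1 and Hadhb. The direct repeat, 2 copies of AGGTCA in the same direction with 1 base of any kind between them, contains the half-site and stood in 0 of the 29 windows, against 18 of all windows (0.0538%). The looser repeat, 2 copies of AGGNCA spaced in the same way, stood in 0, against 139 (0.415%). A match is a match of letters only, and no match says only that these letters are not in the window.

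The arrays did not all carry the same mixture of cells. The cardiomyocyte list (10 of 12 markers measured) averaged between 11.92 and 12.90 on all 27 arrays. The lymphocyte and thymocyte list (13 of 22 measured) averaged 5.83 to 6.41 on 19 arrays, but 6.65 to 9.61 on filtered air 1, coarse 1, 2 and 5, fine 2 and 4 and ultrafine 2 and 7. Ultrafine 8, at 6.23 for that list, stood apart by its median correlation with the other arrays, 0.913, as did coarse 1, ultrafine 2 and ultrafine 7. All results are given for the 27 arrays and again without these 9, which leaves 3 coarse, 4 fine, 5 ultrafine and 6 filtered air arrays, named the 18 arrays below. In heart RNA, fewer cells of a type and less RNA per cell cannot be told apart.

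With ultrafine particles Acot1 and, among the 18 arrays, 4 more induced targets rose over filtered air, while 0 of the 9 core enzymes passed in any comparison. Passing depends on the spread as well as on the size of a difference. Over the 5 ultrafine arrays kept, the SD ran from 0.16 (Etfb) to 0.76 (Hadh) for the core enzymes. For the induced targets that rose it ran from 0.065 (Acot1) to 0.44 (Angptl4). A core enzyme that did not pass is therefore not shown to be unchanged. Over all 27 arrays 1 of the 32 genes rose, Acot1, where 0.0686% of all probes were called in either direction and 0.06% upwards (limma, adjusted p under 0.05 over 11657 probes). Among the 18 arrays 6 rose and 0 fell, where 0.575% of all probes were called and 0.386% upwards. These were Acot1, Angptl4, Cpt1a, Plin2 and Ucp3 of the induced targets and Ech1 of the matrix enzymes, 18.8% of the genes tested. With coarse particles 0 genes were called in the 27 arrays (0.00858% of all probes) and 2 rose in the 18, Acot1 and Ech1 (0.24% of all probes, 0.137% upwards). With fine particles 0 genes were called in either set, as were 0% of all probes by limma. There 1 gene in the 27 arrays and 4 in the 18 had an unadjusted p under 0.05, where 5.98% and 9.55% of all probes did. With the lymphocyte list mean added as a covariate over all 27 arrays, a fit chosen after earlier results were known, Acot1, Cpt1a, Plin2 and Mlycd passed for ultrafine particles and Acot1 for coarse particles. The share of all probes called in that fit is not given here.

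**Figure D1:**
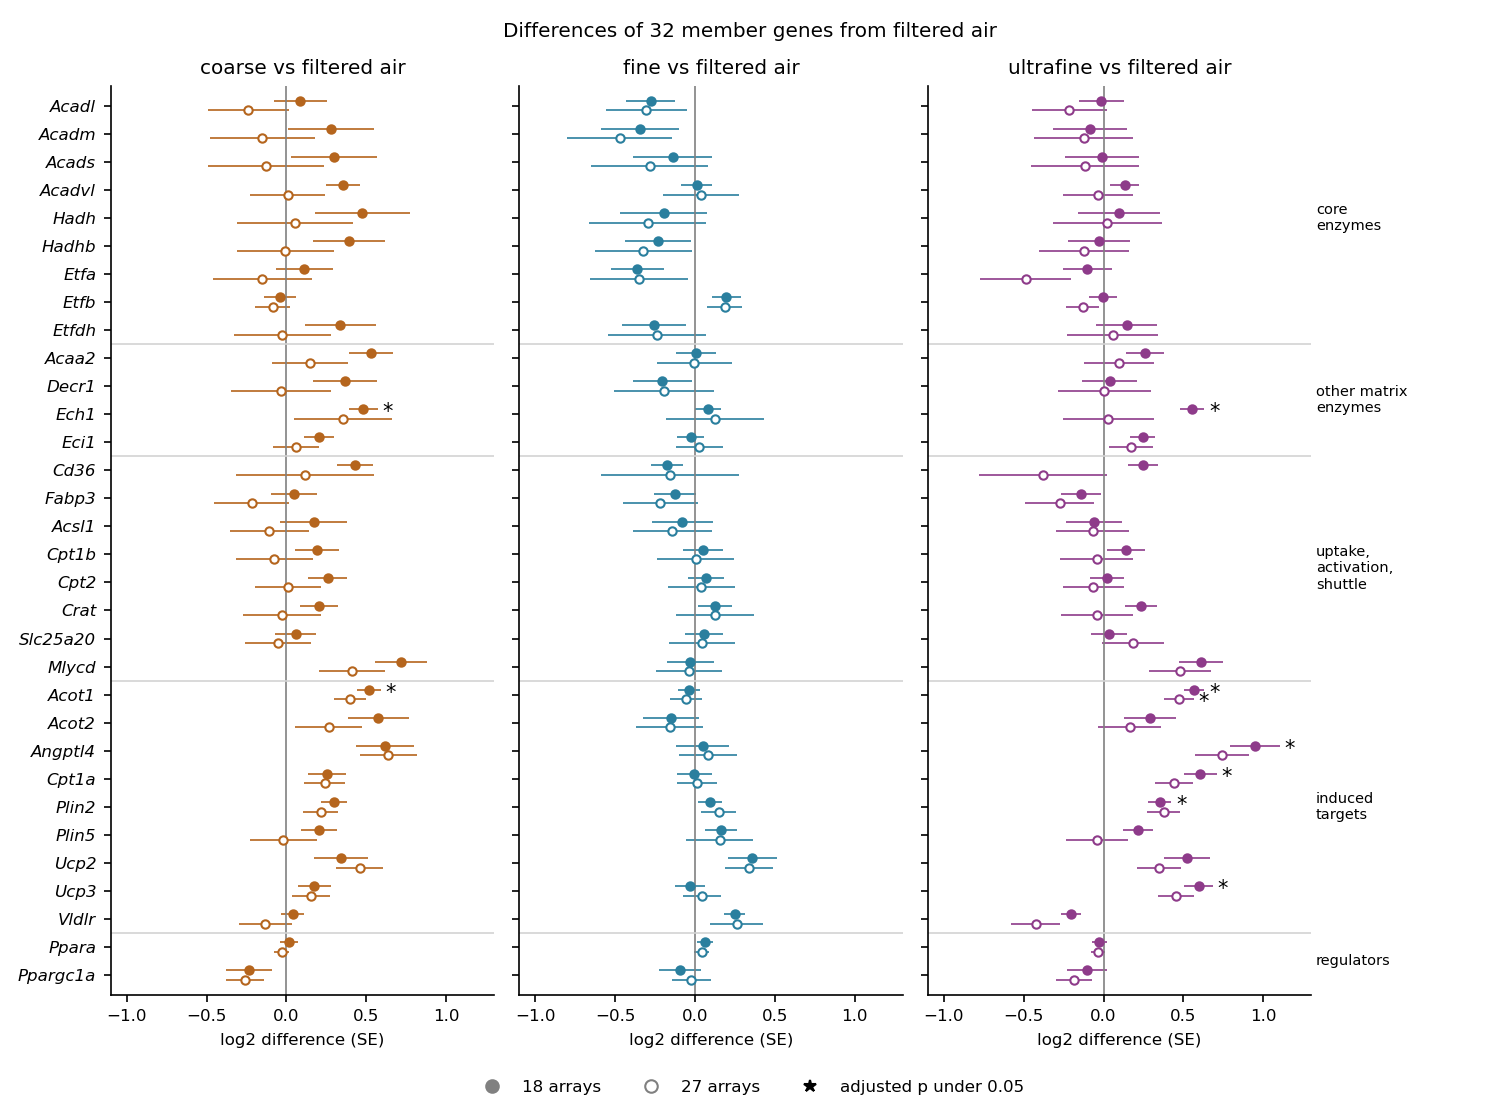
Log2 difference from filtered air (x axis, with its standard error) of 32 genes (rows, grouped by role) for coarse, fine and ultrafine particles. Filled points are the 18 arrays, open points all 27, and stars mark an adjusted p under 0.05. With ultrafine particles in the 18 arrays, 8 of the 9 induced targets lie right of 0, while the core enzymes lie between -0.10 and 0.14.

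Taken by role in the 27 arrays, the median difference of the 9 induced targets was 0.24 with coarse, 0.08 with fine and 0.38 with ultrafine particles, against 0.00 over all probes each time. That of the 9 core enzymes was -0.09, -0.30 and -0.12 in the same order. The induced targets of the 18 arrays had medians of 0.30, 0.05 and 0.52, and the core enzymes 0.30, -0.23 and -0.01. With coarse particles in the 18 arrays both roles therefore had about the same median, with 9 of 9 induced targets and 8 of 9 core enzymes above 0, where 51.4% of all probes were above 0. With ultrafine particles in the 18 arrays, 8 of 9 induced targets but 3 of 9 core enzymes were above 0, where 49.2% of all probes were. That core enzyme count rests on ultrafine 5, the lowest ultrafine array kept for every core enzyme but Etfb. Its core enzyme mean was 9.78, against 10.44 to 10.89 on the other ultrafine arrays kept and 10.35 to 10.71 in filtered air.

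Acot1, a thioesterase that splits long-chain acyl-CoA into free fatty acid and CoA, had the smallest adjusted p of the 32 genes in both sets of arrays with ultrafine particles. Its levels over the 27 arrays (lowest, median and highest) were 6.09, 6.59 and 6.69 with coarse, 5.90, 5.98 and 6.27 with fine and 6.10, 6.65 and 6.79 with ultrafine particles, and 6.00, 6.11 and 6.15 with filtered air. Coarse and ultrafine arrays ran high and the lowest array of each reached into the filtered air range, while fine arrays lay around it. Acot1 averaged 6.57 ± 0.23 with ultrafine particles and 6.10 ± 0.05 with filtered air over the 27 arrays (SD, n = 8 and 7). The difference was 0.47 with an SE of 0.093 (limma adjusted p = 0.0456), and 8 of 8 ultrafine arrays lay above the filtered air mean. With coarse particles it was 0.40 (adjusted p = 0.409) and with fine particles -0.05 (adjusted p = 0.996).

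Among the 18 arrays coarse and ultrafine particles separated from filtered air for Acot1. The coarse arrays were at 6.69, 6.62 and 6.57, the fine arrays at 6.27, 6.22, 5.91 and 5.90, and the ultrafine arrays at 6.79, 6.65, 6.63, 6.65 and 6.66, while filtered air lay between 6.05 and 6.15. Every coarse and ultrafine array was above every filtered air array, and the fine arrays fell on both sides of them. The difference was 0.57 with an SE of 0.064 with ultrafine particles (adjusted p = 0.000314) and 0.51 with an SE of 0.075 with coarse particles (adjusted p = 0.0122). With fine particles it was -0.04, with a 95% interval of -0.18 to 0.11. With 1 of the 27 arrays left out, the limma adjusted p for ultrafine particles ran between 0.00486 and 0.126, and the call was lost in 20 of the 27 fits. Within the 18 arrays it held in 18 of 18 such fits, and that for coarse particles was lost without coarse 3 or coarse 4 (adjusted p up to 0.104). A block for the replicate number, fitted over the 27 arrays, also lost the ultrafine call. Acot1 and its mitochondrial paralogue Acot2 are close in sequence, and how far each probe tells them apart was not tested.

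Angptl4 encodes a secreted inhibitor of lipoprotein lipase. Over the 27 arrays its lowest, median and highest levels were 5.72, 6.35 and 6.93 with coarse, 5.59, 5.73 and 6.03 with fine and 5.87, 6.44 and 7.22 with ultrafine particles, and 5.50, 5.65 and 6.09 with filtered air. The groups overlap, although all 6 coarse and all 8 ultrafine arrays lay above the filtered air mean. The difference was 0.74 with ultrafine (adjusted p = 0.11), 0.64 with coarse (adjusted p = 0.63) and 0.08 with fine particles. Among the 18, ultrafine arrays were at 6.01, 6.55, 6.81, 7.22 and 6.61 and coarse arrays at 6.47, 6.33 and 6.14. Fine arrays were at 5.70, 5.64, 6.03 and 5.59, and filtered air lay between 5.50 and 6.09. Of the coarse and ultrafine arrays only ultrafine 1 overlapped filtered air, and all 4 fine arrays overlapped it. In filtered air the highest array, filtered air 5, lay apart from the other 5 at 5.72 or less. The ultrafine difference was 0.95 with an SE of 0.16 (limma adjusted p = 0.00458) and the coarse one 0.62 (adjusted p = 0.30). The second Angptl4 probe, at a mean of 5.78 just under the filter, differed by 0.04 with ultrafine particles in either set of arrays, so the call rests on 1 of 2 probes.

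Ucp3, a carrier of the inner mitochondrial membrane in muscle and heart, ran at 5.96, 6.21 and 6.38 with coarse, 5.93, 6.02 and 6.44 with fine and 5.92, 6.53 and 6.88 with ultrafine particles, and 5.94, 6.08 and 6.16 with filtered air (lowest, median and highest of the 27 arrays). The ultrafine difference over the 27 arrays was 0.45 (adjusted p = 0.18), with 7 of 8 arrays above the filtered air mean. Without the arrays that stand apart, the ultrafine values were 6.67, 6.76, 6.88, 6.44 and 6.48, the coarse ones 6.38, 6.34 and 5.96, and the fine ones 6.17, 5.93, 5.94 and 6.05, and filtered air spanned 5.94 to 6.16. All 5 ultrafine arrays lay above all other 13. The difference from filtered air was 0.59 with an SE of 0.088 for ultrafine (limma adjusted p = 0.00186), 0.17 for coarse (adjusted p = 0.79) and -0.03 for fine particles.

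Cpt1a, the liver form of the enzyme that commits acyl groups to the carnitine shuttle, had a lowest, median and highest level of 7.64, 7.95 and 8.22 with coarse, 7.53, 7.70 and 7.92 with fine and 7.43, 8.24 and 8.45 with ultrafine particles, and 7.54, 7.64 and 8.06 with filtered air. Its ultrafine difference in the 27 arrays was 0.44 (adjusted p = 0.31). Among the 18, the ultrafine values were 8.19, 8.34, 8.30, 8.38 and 8.45, above a filtered air range of 7.57 to 8.06, and the difference was 0.60 with an SE of 0.10 (limma adjusted p = 0.00651). Of the coarse arrays, those at 8.22 and 8.08 lay above that range and that at 7.64 within it, with a difference of 0.25 (adjusted p = 0.68). Fine arrays at 7.58, 7.92, 7.86 and 7.53 stayed within or below it. Cpt1b, the muscle form of the same enzyme, did not pass in any comparison, and its ultrafine difference was -0.04 in the 27 arrays and 0.14 in the 18 (adjusted p = 0.97 and 0.80).

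**Figure D2:**
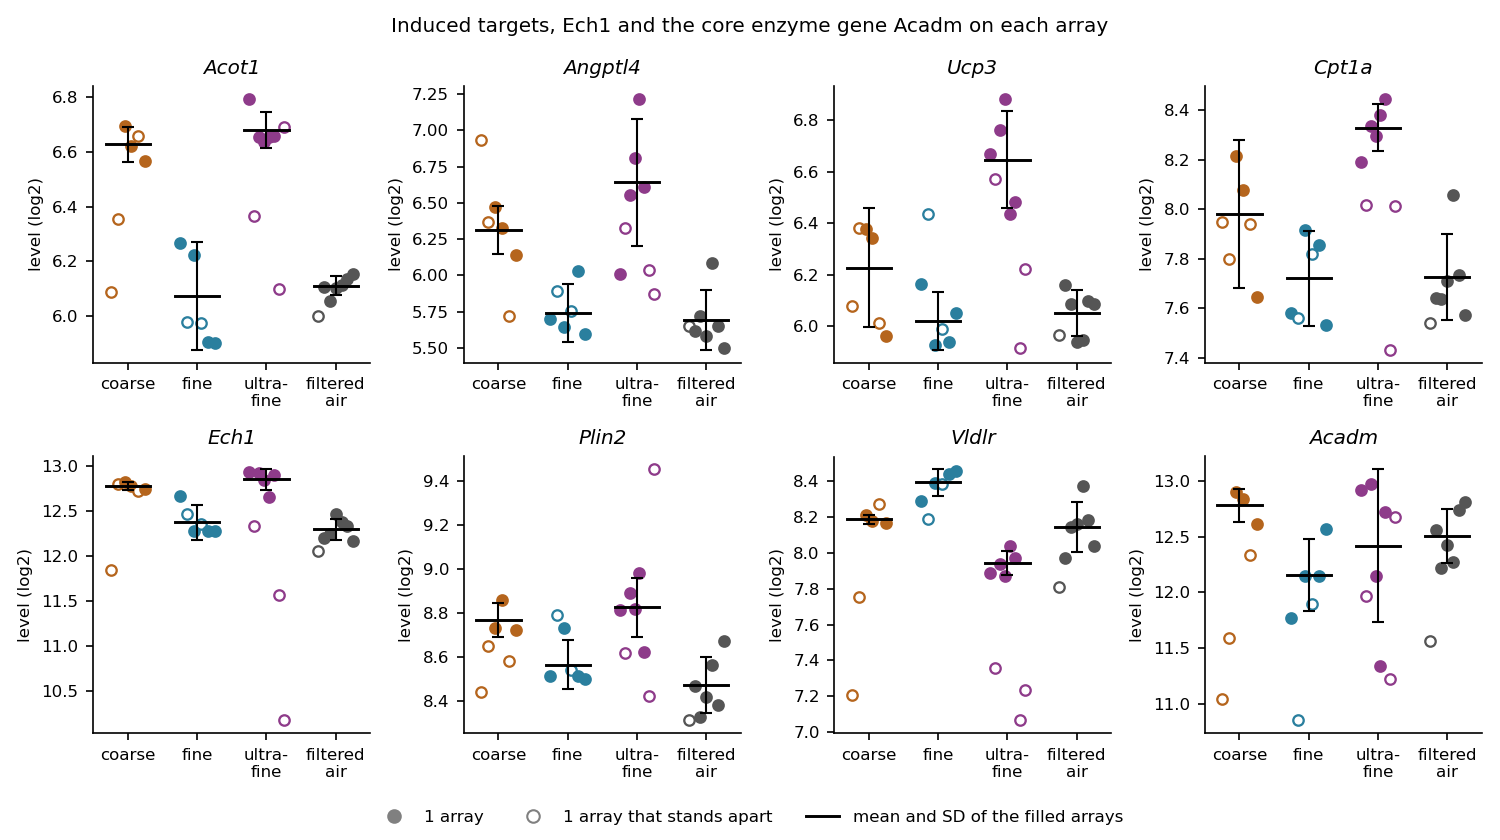
Level on each array (y axis, log2) of 8 genes by group, from coarse, fine and ultrafine particles to filtered air. Open points are the 9 arrays that stand apart, and bars give the mean and SD of the filled points. The 5 filled ultrafine arrays lie above all filled filtered air arrays for Acot1, Ucp3, Cpt1a and Ech1, while for Acadm they spread between 11.34 and 12.97 around the filtered air range.

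Plin2 coats lipid droplets and follows fatty acid load in many tissues. Over the 27 arrays it ran at 8.44, 8.68 and 8.86 with coarse, 8.50, 8.53 and 8.79 with fine and 8.42, 8.82 and 9.45 with ultrafine particles, and 8.31, 8.42 and 8.68 with filtered air (lowest, median and highest). The ultrafine difference was 0.38 in the 27 arrays (adjusted p = 0.34) and 0.35 with an SE of 0.072 in the 18 (adjusted p = 0.0263), where 1 ultrafine array of 5, ultrafine 6 at 8.62, was within the filtered air range of 8.33 to 8.68. This call depended on single arrays. It was lost in 8 of the 18 fits that left out 1 array, without filtered air 2, 3, 4 or 6 or ultrafine 1, 3, 4 or 5 (limma adjusted p up to 0.0782).

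The other induced targets did not pass against filtered air. Ucp2, an uncoupling protein relative found in many cell types, had medians of 11.08 with coarse, 10.91 with fine and 10.91 with ultrafine particles and 10.63 with filtered air over the 27 arrays, and was 0.46, 0.34 and 0.35 above filtered air with coarse, fine and ultrafine particles (adjusted p = 0.85, 0.82 and 0.86). Its highest levels were on ultrafine 5 (11.67) and coarse 5 (11.48), and the highest of filtered air was filtered air 1 (11.06), of which coarse 5 and filtered air 1 are rich in lymphocyte markers. Ultrafine 5 is not, with a lymphocyte list mean of 6.09. Of other arrays rich in them, fine 2 was the highest of its group for Ucp2 (11.30) and ultrafine 7 the lowest of its group (10.645). The part of these cells in Ucp2 was not tested. Without the arrays that stand apart the differences were 0.34, 0.36 and 0.52 in the same order (adjusted p = 0.71, 0.50 and 0.17). Plin5, a droplet coat of oxidative tissue, was 0.22 and Acot2 0.29 above filtered air with ultrafine particles in the 18 arrays (adjusted p = 0.52 and 0.66).

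Vldlr, which takes up triglyceride-rich lipoproteins, had a negative ultrafine difference from filtered air in both sets of arrays, and Plin5 one of -0.04 in the 27 arrays. The other induced targets had positive ones in both sets. The lowest, median and highest levels of Vldlr over the 27 arrays were 7.21, 8.17 and 8.27 with coarse, 8.19, 8.38 and 8.45 with fine and 7.07, 7.88 and 8.04 with ultrafine particles, and 7.81, 8.14 and 8.37 with filtered air. All 8 ultrafine arrays lay below the filtered air mean and all 6 fine arrays above it. Against filtered air neither passed, with a difference of -0.43 for ultrafine (adjusted p = 0.75) and 0.26 for fine particles (adjusted p = 0.91), and -0.20 and 0.25 in the 18 arrays (adjusted p = 0.24 and 0.35).

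The core enzymes varied widely from array to array. Acadm, the medium-chain acyl-CoA dehydrogenase, ran at 11.04, 12.47 and 12.90 with coarse, 10.85, 12.02 and 12.57 with fine and 11.22, 12.41 and 12.97 with ultrafine particles, and 11.57, 12.42 and 12.81 with filtered air (lowest, median and highest). All 4 groups overlap over most of their range. In each group the lowest array was one rich in lymphocyte markers, namely coarse 1, fine 2, ultrafine 7 and filtered air 1. Acadm differed by -0.15, -0.47 and -0.13 from filtered air with coarse, fine and ultrafine particles, over the 27 arrays, with limma adjusted p = 0.985, 0.918 and 0.939 in that order.

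Among the 18 arrays Acadm was at 12.90, 12.83 and 12.62 with coarse, at 11.77, 12.15, 12.14 and 12.57 with fine and at 12.92, 12.97, 12.14, 11.34 and 12.72 with ultrafine particles, while filtered air spanned 12.21 to 12.81. The low ultrafine value is ultrafine 5, which was also the lowest of the 5 ultrafine arrays kept for Acads (7.13), Hadh (8.84) and Etfdh (9.24) and was not among the arrays that stand apart. The same array was highest of the 5 for several lists of other cell types, given below. With coarse particles 0 of the 9 core enzymes passed, and the largest differences were those of Hadh, the short-chain hydroxyacyl-CoA dehydrogenase (0.47, adjusted p = 0.82), Hadhb, the thiolase subunit of the trifunctional protein (0.39, adjusted p = 0.78), and Acadvl, the very long chain dehydrogenase (0.36, adjusted p = 0.32). The 3 coarse arrays lay above all filtered air arrays for Acadvl alone among the 9. With ultrafine particles, ultrafine 5 included, the 9 core enzymes differed by between -0.10 and 0.14. With fine particles Etfa, the alpha subunit of the electron transfer flavoprotein, was 0.36 below filtered air and Acadl, the long-chain dehydrogenase, 0.28 below (adjusted p = 0.50 and 0.58), and the 4 fine arrays of Acadl lay below the 6 of filtered air (2.51% of all probes separated in either direction).

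Etfb, the beta subunit of the electron transfer flavoprotein, had the highest difference of fine particles from filtered air among the core enzymes. It ran at 6.48, 7.07 and 7.19 with coarse, 7.21, 7.23 and 7.49 with fine and 6.66, 6.95 and 7.27 with ultrafine particles, and 6.83, 7.11 and 7.27 with filtered air. The 6 fine arrays all lay above the filtered air mean and above all 6 coarse arrays, where 0.961% of all probes separated. No pair of groups passed for Etfb, and fine particles were 0.18 above filtered air in the 27 arrays and 0.20 in the 18 (limma adjusted p = 0.91 and 0.52).

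**Figure D3:**
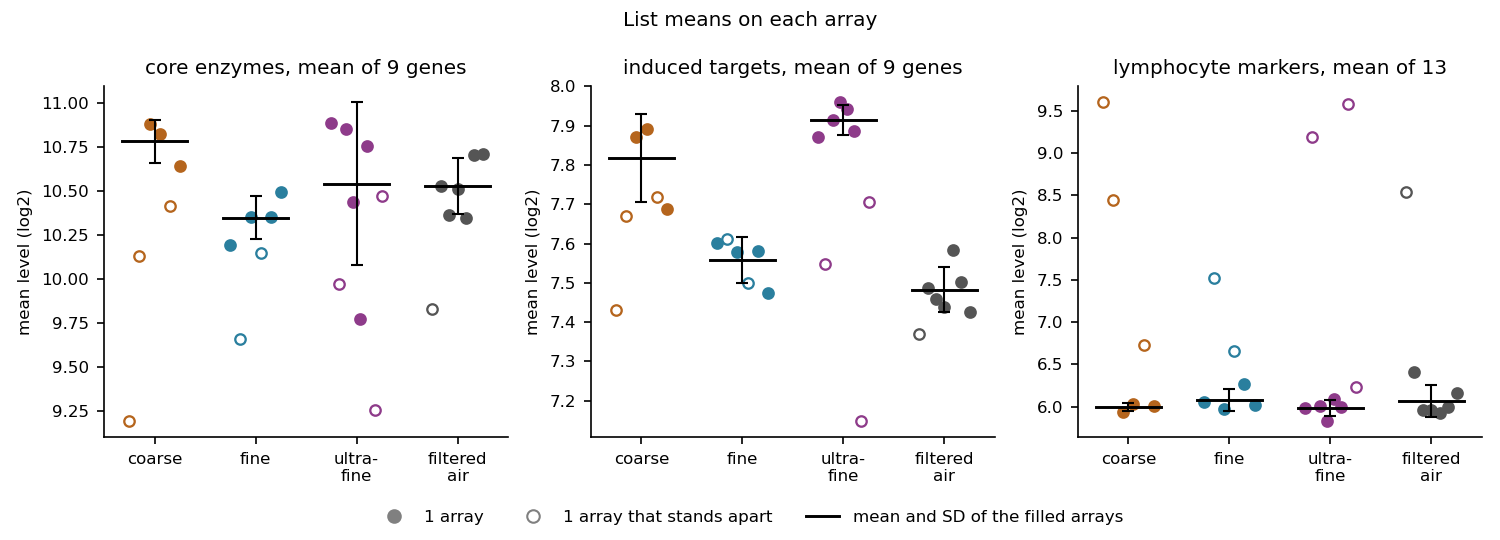
Mean level on each array (y axis, log2) of the core enzymes, the induced targets and the lymphocyte markers by group, with open points for the 9 arrays that stand apart and bars for the mean and SD of the filled points. The induced targets of the 5 filled ultrafine arrays lie between 7.87 and 7.96, above 7.43 to 7.58 in filtered air, while the core enzymes overlap.

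Averaged per array over the 18 arrays, the induced targets lay between 7.69 and 7.89 with coarse, 7.47 and 7.60 with fine and 7.87 and 7.96 with ultrafine particles, and between 7.43 and 7.58 with filtered air. Coarse and ultrafine arrays thus did not overlap with filtered air. The core enzymes averaged 10.64 to 10.88 with coarse, 10.20 to 10.50 with fine and 9.78 to 10.89 with ultrafine particles, and 10.35 to 10.71 with filtered air, and each exposure overlapped filtered air. On the 9 arrays that stand apart the core mean fell as low as 9.19 on coarse 1, 9.25 on ultrafine 7, 9.66 on fine 2 and 9.83 on filtered air 1. On these 4 arrays the lymphocyte list averaged 9.61, 9.58, 7.53 and 8.54, and its part in the core enzyme levels was not tested beyond the fit that takes it as a covariate.

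Lists of other cell types were read beside these results in the 18 arrays. The endothelial list (5 of 7 measured) averaged 6.78 to 6.94 with coarse, 6.59 to 6.73 with fine and 6.72 to 7.03 with ultrafine particles, and 6.54 to 6.69 with filtered air. Its mean was thus above filtered air where the induced targets were, but its genes did not rise alike. Their median difference was 0.22 with coarse and 0.07 with ultrafine particles. Gpihbp1, also a gene of the pathway read below, was highest at 0.73 and 0.71, and Flt1 lowest at -0.14 and -0.09. The part of the endothelial list in those results was not tested. The white adipocyte list (7 of 10) averaged 7.02 to 7.91, 6.97 to 7.97 and 7.09 to 7.85 with coarse, fine and ultrafine particles and 6.81 to 8.15 with filtered air, and the groups overlap. Filtered air 5 was highest of its group for that list and for the brown adipocyte list (9.92, 4 of 7 measured), for Angptl4 and for Cpt1a. Ultrafine 1 had the lowest white adipocyte mean of the 5 ultrafine arrays kept, and its Acot1 level, 6.79, was the highest of the 27, while its Angptl4 and Cpt1a levels, 6.01 and 8.19, were the lowest of those 5. Ultrafine 5 had the highest white adipocyte mean of the 5, 7.85, and the highest Angptl4 level, 7.22. Coarse 6 went the other way. It had the highest white and brown adipocyte means of the 3 coarse arrays kept, 7.91 and 9.55. Its Angptl4 and Cpt1a levels, 6.14 and 7.64, were the lowest of those 3. The part of the adipocyte lists was not tested. The skeletal muscle list (7 of 12) stood at 9.34 on coarse 6, against 6.69 and 6.70 on the other 2 coarse arrays, and Ucp3 was lowest of its group there, at 5.96. The macrophage list (6 of 9) averaged 7.49 to 7.62 with coarse, 7.36 to 7.47 with fine and 7.33 to 7.91 with ultrafine particles, and 7.24 to 7.46 with filtered air, so the coarse arrays lay above filtered air for it, and its part was likewise not tested. Ultrafine 5 was the highest of the 5 ultrafine arrays kept for the skeletal muscle (7.64, median 6.71), macrophage (7.91, median 7.48) and endothelial lists (7.03, median 6.79). The part of that mixture in its levels was not tested.

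Among the other matrix enzymes Ech1, an isomerase that prepares unsaturated fatty acids for the spiral, rose in the 18 arrays. Over the 27 arrays it ran at 11.85, 12.76 and 12.82 with coarse, 12.28, 12.32 and 12.66 with fine and 10.18, 12.75 and 12.93 with ultrafine particles, and 12.06, 12.24 and 12.46 with filtered air. The ultrafine group held 3 low arrays, ultrafine 8 at 10.18, ultrafine 7 at 11.57 and ultrafine 2 at 12.34, all of which stand apart. The ultrafine difference was therefore 0.03 in the 27 arrays (adjusted p = 0.98), but 0.55 with an SE of 0.077 in the 18 (limma adjusted p = 0.00101). There the ultrafine arrays were at 12.93, 12.92, 12.85, 12.66 and 12.90, the coarse arrays at 12.82, 12.77 and 12.74 and the fine arrays at 12.66, 12.28, 12.28 and 12.28, and filtered air lay between 12.16 and 12.46. No coarse or ultrafine array overlapped filtered air. The coarse difference of 0.48 (adjusted p = 0.0270) lost its call in 7 of the 18 fits that left out 1 array, without filtered air 2, 3, 6 or 7 or any 1 of the 3 coarse arrays (adjusted p up to 0.216).

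Acaa2, the matrix thiolase, was 0.53 above filtered air with coarse particles in the 18 arrays, with all 3 coarse arrays above all 6 of filtered air, and did not pass (adjusted p = 0.18). Decr1 and Eci1, which like Ech1 handle double bonds, were 0.37 and 0.20 above filtered air there, and 0.04 and 0.24 above it with ultrafine particles (adjusted p of at least 0.31). Across all 32 genes, 7 were above filtered air without overlap in the 3 coarse arrays (2.47% of all probes were), 0 in the 4 fine arrays (1.35%) and 4 in the 5 ultrafine arrays (0.695%). No gene separated from filtered air over the 27 arrays with coarse, fine or ultrafine particles, where 0.283%, 0.652% and 0.12% of all probes did.

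In uptake and the shuttle, Mlycd had the largest differences with coarse and ultrafine particles among the 18 arrays. It encodes malonyl-CoA decarboxylase, which removes the inhibitor of carnitine palmitoyltransferase. It ran at 9.20, 10.12 and 10.53 with coarse, 9.48, 9.54 and 9.90 with fine and 9.13, 10.35 and 10.62 with ultrafine particles, and 9.35, 9.67 and 9.99 with filtered air. Among the 18 arrays coarse values were 10.53, 10.51 and 10.21, fine values 9.50, 9.90, 9.72 and 9.57 and ultrafine values 10.60, 10.62, 10.36, 9.63 and 10.35, against 9.57 to 9.99 in filtered air. All coarse arrays and all ultrafine arrays but ultrafine 5 were above that range. The difference was 0.71 with coarse (adjusted p = 0.10) and 0.61 with ultrafine particles (adjusted p = 0.0580), past the threshold in neither, and -0.03 with fine particles. By the test of any difference among the 4 groups Mlycd passed in the 18 arrays (limma F test, adjusted p = 0.0289), as did Acot1 (0.000106), Ech1 (0.00174), Ucp3 (0.00412), Angptl4 (0.0115), Vldlr (0.0127) and Cpt1a (0.0159), which makes 7 of 32 where 0.515% of all probes passed. Over the 27 arrays Acot1 passed alone (adjusted p = 0.0117), where 0.0944% of all probes did.

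Cd36, the fatty acid translocase, which is also abundant in capillary endothelium, was 0.43 above filtered air with coarse and 0.25 above it with ultrafine particles in the 18 arrays (adjusted p = 0.17 and 0.44). Over the 27 arrays its ultrafine difference was -0.38, with ultrafine 8 at 8.32 and the other 7 ultrafine arrays at 10.89 or higher. Ultrafine 8 was low in Cd36, Ech1 and Etfa (8.29) and at the same time highest of all 27 arrays in Plin2 (9.45), Slc25a20 (10.37), Decr1 (11.81) and Etfdh (10.85). Fabp3, the fatty acid binding protein of the heart, Acsl1, the main acyl-CoA synthetase, Cpt2, the inner carnitine palmitoyltransferase, Crat, which swaps short acyl groups onto carnitine, and Slc25a20, the carnitine carrier, differed by between -0.14 and 0.26 from filtered air over the 3 sizes in the 18 arrays, and none passed. The second Crat probe, at a mean of 5.80, differed by between 0.07 and 0.09 there.

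The regulators themselves were dim and passed in no comparison. Ppara, the receptor, averaged 5.84 over all arrays, close to the filter at 5.79, and its levels ran at 5.59, 5.85 and 5.95 with coarse, 5.83, 5.88 and 5.97 with fine and 5.75, 5.83 and 5.87 with ultrafine particles, and 5.73, 5.87 and 5.91 with filtered air. A probe this dim shows little of any change, and its differences of -0.03, 0.04 and -0.03 with coarse, fine and ultrafine particles are given with that limit. Ppargc1a, a coactivator of PPAR alpha, ran at 5.84, 6.10 and 6.20 with coarse, 6.05, 6.27 and 6.51 with fine and 5.65, 6.20 and 6.48 with ultrafine particles, and 6.10, 6.38 and 6.52 with filtered air. All 6 coarse arrays lay below the filtered air mean, with a difference of -0.26 in the 27 arrays (adjusted p = 0.985) and -0.23 in the 18 (adjusted p = 0.809).

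**Figure D4:**
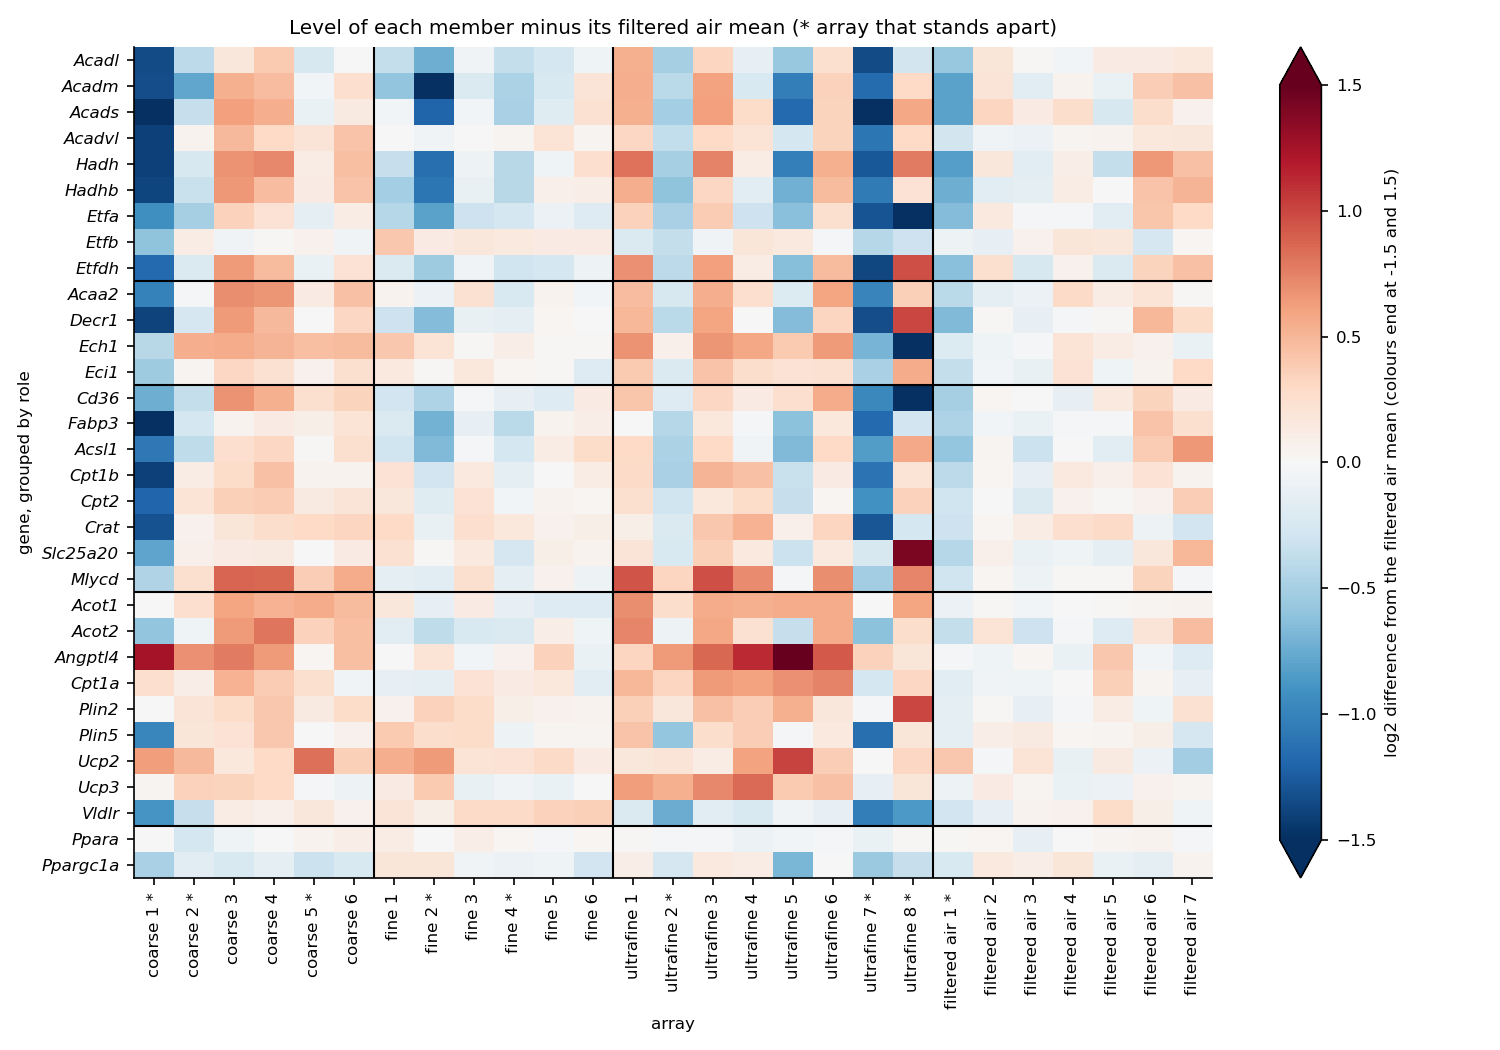
Level of each of 32 genes (rows, by role) on each array (columns, by group) minus the mean of the gene over the 7 filtered air arrays, on a log2 scale with colours ending at -1.5 and 1.5. Stars mark the 9 arrays that stand apart. Most core enzymes are low together on coarse 1, fine 2, ultrafine 5, ultrafine 7 and filtered air 1, and Acot1, Angptl4, Cpt1a and Ucp3 are high on the unstarred ultrafine arrays, ultrafine 5 included.

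The 3 particle sizes were also set against each other, with adjusted p-values over all probes within each of the 3 pairs. Between fine and ultrafine particles Acot1, Ucp3, Cpt1a, Angptl4 and Ech1 were lower and Vldlr higher with fine particles among the 18 arrays. With all 27 arrays 1 gene was called, Acot1, with a difference of -0.53 (limma adjusted p = 0.0163), where 0.197% of all probes were called and 0.0944% downwards. That call was lost without fine 4 or fine 5 (adjusted p up to 0.0548). Vldlr, by contrast, was 0.69 higher with fine particles there and did not pass (adjusted p = 0.0657), although its 6 fine arrays lay above all 8 ultrafine arrays, as 0.463% of all probes did. Without the arrays that stand apart 6 genes passed, where 0.463% of all probes did, 0.24% upwards and 0.223% downwards. Acot1 (-0.60, adjusted p = 0.000276), Ucp3 (-0.63, adjusted p = 0.00408), Ech1 (-0.48, adjusted p = 0.0108), Cpt1a (-0.61, adjusted p = 0.0188) and Angptl4 (-0.90, adjusted p = 0.0207) were lower with fine than with ultrafine particles, and Vldlr was higher (0.45, adjusted p = 0.00316). Mlycd (-0.64, adjusted p = 0.0671) and Cd36 (-0.42, adjusted p = 0.0763) did not pass.

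Leaving out 1 of the 18 arrays gave between 3 genes, without fine 6, and 11 genes, without ultrafine 5, for fine against ultrafine particles. The shares of all probes called in these fits are not given here. Acot1, Ucp3 and Vldlr passed in 18 of 18 fits that left out 1 array. Angptl4 was lost without fine 1, 3 or 6, Cpt1a without fine 1 or 6, and Ech1 without fine 3, 5 or 6 (adjusted p up to 0.0833, 0.0833 and 0.0578).

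Coarse against fine particles gave 0 genes in the 27 arrays (0.0257% of all probes) and 1 in the 18, Acot1, which was 0.55 higher with coarse particles (limma adjusted p = 0.00693, 0.146% of all probes, 0.0772% upwards). The call was lost without coarse 3 or coarse 4 (adjusted p up to 0.116). In these 7 arrays 16 of the 32 genes lay higher with coarse particles without overlap, where 7.92% of all probes did, and 2 lay lower, Etfb and Vldlr (14.7% of all probes separated in either direction). The 16 hold Acadl, Acadm, Acadvl, Hadh, Hadhb, Etfa and Etfdh of the core enzymes, and 4 of 4 other matrix enzymes. The median difference of the core enzymes was 0.48, and 0 of them passed over all probes (adjusted p of at least 0.385).

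Coarse against ultrafine particles gave 0 genes in either set, as 0% of all probes were called. At an unadjusted p under 0.05 stood 1 gene and 2.56% of all probes in the 27 arrays, and 3 genes and 5.27% of all probes in the 18. For Acot1 the difference in the 18 arrays was -0.05, with a 95% interval of -0.21 to 0.11, and for Ech1 -0.07 (-0.27 to 0.12), so differences as large as those from filtered air lie outside both intervals. Ucp3 was 0.42 lower with coarse particles (-0.64 to -0.20, adjusted p = 0.83), with the 3 coarse arrays below all 5 ultrafine arrays (3.96% of all probes separated in either direction). Cpt1a was 0.35 lower and Vldlr 0.24 higher with coarse particles (adjusted p = 0.83 for both).

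Further genes of the pathway were read from a list of 92, of which 60 were measured. Among the 18 arrays 7 of the 60 rose with ultrafine particles and 0 fell, where 0.386% of all probes rose. They were Pdk4 (1.81 above filtered air, limma adjusted p = 0.000726), the thioredoxin-binding protein gene Txnip (0.95, adjusted p = 0.00386), hormone-sensitive lipase, Lipe (0.94, adjusted p = 0.00159), Gpihbp1, the endothelial anchor of lipoprotein lipase (0.71, adjusted p = 0.00186), the glycerol channel gene Aqp7 (0.70, adjusted p = 0.000891), the triglyceride lipase gene Pnpla2 (0.61, adjusted p = 0.00436) and the fatty acid transporter gene Slc27a1 (0.54, adjusted p = 0.00427). Lipe and Pnpla2 belong to the white adipocyte list and Gpihbp1 to the endothelial list as well. With coarse particles 4 rose, Pdk4 (1.70), Gpihbp1 (0.73), Pnpla2 (0.65) and Aqp7 (0.56), where 0.137% of all probes rose. With fine particles 0 changed by limma, as 0% of all probes did, and 5 of the 60 had an unadjusted p under 0.05, where 9.55% of all probes did. The median of the 60 was 0.00 with ultrafine particles, as over all probes. Txnip alone passed with ultrafine particles over the 27 arrays (0.84, adjusted p = 0.0293).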

How the data were processed

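Heart RNA of 27 rats was measured on Illumina bead arrays. Per the labels' protocols and the submitters' processing notes, the authors ran the default normalisation of lumi 1.5.17 on the bead signals and removed 5 of 32 arrays before they deposited the values, which were read as log2. Set against filtered air 1, the sorted values of the other arrays were at most 0.0185 away, so the table was used as deposited. No 2 arrays held identical values. The sources used here name no slide and no background correction beyond that default, and the number of arrays, not read depth, limit the precision.

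Probe symbols came from the platform annotation, updated through gene identifiers to RefSeq names: 13192 probes had 1 symbol (13151 matched), none had several and 9034 had none, so an unnamed probe can be of a gene called unmeasured here. The 11657 probes with the highest mean over all arrays (5.79 or more; as many as the series text gives for the authors' own filter on detection) were fitted with limma 3.58.1 in R 4.3.3 (lmFit and eBayes on the 4 groups, two-sided, Benjamini-Hochberg over all kept probes within each comparison), with 1 probe per gene, the brightest. The F test asked for any difference among the 4 groups. Intervals cover 95%.

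An array stood apart when its lymphocyte list mean was over 3 median absolute deviations above the median array, or when its median correlation with the others was under 0.949, and all fits were repeated without such arrays. The members, gene lists and tests were chosen with earlier results of these data known, so nothing here is independent of them. Genes were named where they are induced targets or regulators, passed in either set of arrays, or had one of the 5 smallest p-values, and further ones were named after their values were seen. The fits were also run on simulated data with independent probes and, for each probe, the same spread in every group. Those data held no arrays that stand apart, so they do not show how the fits behave with such arrays. Alternatives were the probe filter, scaling, a trended robust fit, array weights, a replicate block, only the groups compared, the mean over probes, each array left out, a lymphocyte limit of 4 and the lymphocyte mean as a covariate.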

Additional observations from a re-analysis of the deposited data

Results flagged for a closer look

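In 9 of 72 groups of arrays tested, 1 array lay apart from the others by Dixon's criterion, where chance gives about 1 in 20. Coarse 1, rich in lymphocyte markers, was low in Ech1 at 11.85, with the next coarse array at 12.716, and in Etfb at 6.4779, with the next at 7.0334. It was also low in the mean of the other matrix enzymes (10.665) and in that of uptake, activation and shuttle (9.4754). Filtered air 1, likewise rich in those markers, was low in the core enzyme mean (9.8328), and ultrafine 7 in Cpt1a (7.4312), with the next ultrafine array at 8.0139. Without these 3 arrays the groups are those described above as the 18 arrays, which leave out 6 more.

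The other 3 lie on arrays kept among the 18. Filtered air 5 was high in Angptl4 (6.0886, the next filtered air array being at 5.7209) and in Cpt1a (8.0592, the next at 7.7359), and it had the highest adipocyte list means of its group. Fine 1 was high in Etfb (7.4933, the next at 7.2604).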

How the results depend on the processing

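The counts of members called depend most on how the arrays that stand apart are treated, and the cause was not tested. For coarse particles against filtered air, 0 of the 32 genes were called over all 27 arrays, 4 with array weights, 2 without the 9 arrays that stand apart, 2 with a lymphocyte limit of 4 (20 arrays kept) and 1 with the lymphocyte mean as a covariate. For ultrafine particles against filtered air the count was 1, and it was 7, 6, 7 and 4 under the same 4 settings. It was 0 with no filter, with a stricter filter on dim probes, with a trended robust fit and with only the groups compared. For coarse against fine particles it was 0, and 3, 1, 3 and 1 under the 4 settings. For fine against ultrafine particles it was 1, and 11, 6, 8 and 4, and 0 with the stricter filter and with only the groups compared. The lymphocyte limit of 4, the covariate and the left-out arrays among the 18 were chosen after the data were seen. Shares of all probes called are given above for the 27 and the 18 arrays only. For the other settings and the left-out arrays they are not given, so those counts are not read as particular to these genes. Scaling by median and absolute deviation, quantile normalization again and the mean over probes moved none of these counts. The first 2 could change little, because the sorted values were already at most 0.0185 from those of filtered air 1. The mean over probes changes the values of only Angptl4 and Crat among the 32 genes. These settings therefore say little about how firm the counts are. Ech1 reversed between fine and ultrafine particles, at 0.10 over the 27 arrays but -0.4714 with array weights, -0.4759 without the arrays that stand apart and -0.479 with the limit of 4.

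With 1 of the 27 arrays left out, the count ran from 0 to 4 for ultrafine particles against filtered air, from 0 to 1 for coarse against fine and from 0 to 3 for fine against ultrafine particles, each highest without ultrafine 7. Within the 18 arrays it ran from 0 (without coarse 3 or 4) to 5 (without ultrafine 5) for coarse particles against filtered air, from 0 to 4 for coarse against fine, and from 3 to 11 for fine against ultrafine particles. The range for ultrafine particles against filtered air within the 18 arrays is not given here. Nor are the fits with an array left out for the ultrafine calls of Angptl4, Ucp3, Cpt1a and Ech1.

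The labels tie no shared animal or batch to a replicate number, so the numbers were not taken as pairs. Same-numbered pairs of arrays did deviate together more often than others, though not every one did. Of the same-numbered pairs 23 of 37 correlated over 0.1 (median 0.341, range -0.717 to 0.873), against 98 of 235 other-numbered pairs (median 0.00826). An array of its own number was the best match in another group for 6 of 27 arrays, and the share that unrelated numbers would give was not worked out. Whether same-numbered arrays share a batch was not tested. With the replicate block the count was 0 for ultrafine particles against filtered air, where Acot1 was no longer called, and 4 for fine against ultrafine particles. Background correction and a slide block were not run, since the values used here carry neither. The number of arrays, and dim probes such as Ppara, limit what can be seen.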
